A study of Drosophila melanogaster with 3 samples.

Results

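Of 8 core cell death genes of the fly, 4 carried a lilli-eGFP peak of the authors' reproducible (optimal) list at a start site in whole embryos, against 31.3% of all protein-coding genes, and hid had the strongest of these. Of the other 3 activators on chromosome arm 3L, rpr and skl had weaker start-site peaks outside that list and grim had no start-site peak. The DNA between hid and grim held 10 optimal peaks outside every annotated gene, and no share of windows of this length is given. Of the 10, 6 were found in all 3 replicates, against 63.5% of all optimal peaks. From hid to skl there were 13 optimal peaks, and 56.7% of windows of that length along the chromosome arms held at least as many. The caspase inhibitor gene Diap1 had optimal peaks at 3 of its start regions and a stronger one inside an intron. The 8 genes were taken by name from the core of the pathway out of 13945 annotated protein-coding genes. They are the activators hid, grim, rpr and skl, the inhibitor Diap1, the initiator caspase gene Dronc, the effector caspase gene Drice and Dark, which encodes the adaptor that activates Dronc. Each was searched for peaks with a summit within 500 bp of any transcription start site, for peaks elsewhere in the gene, and for peaks in the gaps between hid, grim, rpr and skl. In this way 20 of the 6970 peaks of the main list were counted, 6 at start sites, 2 in gene bodies and 12 in the gaps.

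The data were chromatin immunoprecipitation with sequencing (ChIP-seq) from 1 group, 3 biological replicates of whole embryos of mixed sex collected from 0 to 24 h. The fly line, of strain lilli-GFP, is transgenic and carries, per the labels, an insertion aimed at lilli that joins eGFP to the C-terminal end of the protein. Sonication gave chromatin pieces of 200 to 800 bp, which were pulled down through the tag with an anti-GFP antibody. There was no second genotype, tissue or stage among the samples, and no mock precipitation was analysed here. All tissues and ages of the embryo were mixed, so a peak present in few cells or for a short time may be missed, and the share of cells behind a peak cannot be told apart from its strength in each cell. The files hold peaks and not reads, so depth is unknown.

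In flies, as background, developmental and stress signals start apoptosis mainly by switching on transcription of hid, grim, rpr and skl, whose proteins bind Diap1 and remove its block on caspases. Freed Dronc is activated on an apoptosome built by Dark and cleaves effector caspases such as Drice, which dismantle the cell. The 4 activator genes sit in a row with long stretches without coding genes between them, where enhancers that answer to cell identity, hormones and DNA damage are known. Lilli, the fly AF4/FMR2 protein, is a scaffold of the super elongation complex, which releases paused RNA polymerase II into the gene.

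A peak's signal is the authors' own value. It serves here for ranks inside each list alone, where rank 1 is the strongest. The optimal list, the authors' reproducible set, holds the 6970 strongest of 30000 peaks called on the pooled replicates, with signals from 112 to 5425. A gene with an optimal summit within 500 bp of a start site is called bound, and pooled peaks past rank 6970 are called lower-ranked. A replicate's strongest peaks are its own first 6970 of 30000. Optimal promoter peaks were present at 4 of the 8 genes, hid, Drice, Diap1 and Dark, against 31.3% of all protein-coding genes. Promoter peaks among the strongest of all 3 replicates were present at 3 of the 8, hid, Drice and Diap1, against 24.6%. Diap1 counted there through different start sites in different replicates, and none of its promoter peaks was itself among the strongest of all 3. Any pooled promoter peak was present at 7 of the 8, grim being the exception, against 55.0%. With 8 genes these counts are a description, and no test was made. Without replicate 1 or without replicate 2, when optimal peaks had to be among the strongest of both others, 2 genes counted as bound, hid and Drice. The 31.3% does not apply to these smaller sets of peaks.

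**Figure D1:**
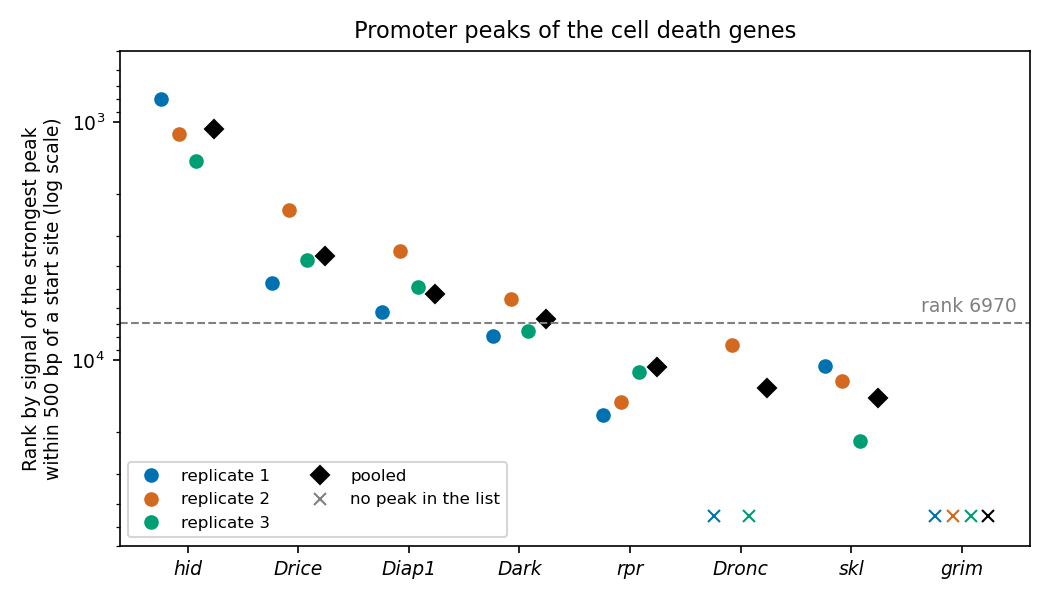
Rank of the strongest peak within 500 bp of a start site for each gene, on a log scale with strong peaks at the top, in replicates 1, 2 and 3 (coloured points) and in the pooled list (diamonds). The dashed line is rank 6970, the end of the optimal list; hid stands above it in every replicate and above all other genes shown, while grim has no peak in any list and Dronc has 1 among the replicates, in replicate 2.

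The gene hid (FBgn0003997, 3L, 18167745 to 18185641, minus strand, dm6) encodes an activator that binds Diap1 and is held in check by growth factor signalling. Its start site had 1 optimal peak, from 18185916 to 18186150, with signal 443 and rank 1066. The peak ranked 801 in replicate 1, 1119 in replicate 2 and 1456 in replicate 3. All 3 ranks were ahead of every promoter rank of the other 7 genes, so the range for hid did not overlap with theirs. Among the 4371 bound genes hid was in place 1025, with 23.4% of them stronger. The 2 protein-coding genes with the closest ranks over the 3 replicates, among 6316 genes with a promoter peak in every replicate, were the sex determination gene Sxl (859, 1162 and 1396) and CG32452 (829, 1002 and 1585).

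The hid summit lay well upstream of the start site, by 321 bp in the optimal list and at positions -311, -345 and -249 in replicates 1, 2 and 3. For all 3865 optimal peaks at promoters the median summit was at -77, and 7.79% were at least as far upstream as that of hid. With a promoter window of 250 bp hid no longer counted as bound, and 3 of the 8 genes did. Replicate 3 held a second, weaker promoter peak at -452, of rank 4789. Inside the gene, 17.9 kb long, there was no optimal peak over 500 bp from the start, and 7 lower-ranked ones. The 151 bases centred on the hid summit are shown because this was the strongest promoter peak of the 8 genes. They are from chr3L:18185887-18186037, minus strand, of the RefSeq genome Release 6 plus ISO1 (dm6), read in the direction of hid, and capitals mark the TATA box word, which lies far from the start site here.
hid summit: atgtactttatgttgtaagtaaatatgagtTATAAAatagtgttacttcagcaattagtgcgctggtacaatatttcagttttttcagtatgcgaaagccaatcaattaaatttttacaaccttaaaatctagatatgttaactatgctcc

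The other 3 activators had no optimal peak at a start site or in the gene. For rpr (FBgn0011706, 3L, 18397535 to 18398435, minus strand), which encodes a short protein that binds Diap1 and promotes its breakdown, the pooled list had a peak at position 52 downstream of the start. It had rank 10616 and signal 74.4, and it ranked 16965, 14954 and 11236 in replicates 1, 2 and 3. All 3 replicates thus placed a peak within 50 bp downstream of the rpr start, at positions 50, 37 and 29, and none placed it among the strongest. For skl (FBgn0036786, 3L, 18438561 to 18439942, minus strand), an activator related to rpr and grim, the pooled peak at position -2 had rank 14440 and signal 55.3. Its best promoter rank was 10566, 12191 and 21747 in the 3 replicates. The replicate ranges of rpr and skl overlapped, so the order between them is not resolved. Around grim (FBgn0015946, 3L, 18302719 to 18304417, minus strand), which encodes an activator that also acts at mitochondria, no list held a peak within 500 bp of the start. The nearest pooled peak, of rank 29008, lay 2487 bp downstream, and the nearest optimal summit lay 22998 bp away. In replicates 1, 2 and 3 the nearest peaks were 1692, 13911 and 2488 bp away, with ranks of 24617, 14285 and 26683. The noncoding genes lncRNA:CR45975 and asRNA:CR45974, overlap grim and had no promoter peak either. In the pooled list the genes on either side of the end of the optimal list were Dark, bound at rank 6703, and rpr, unbound at 10616. The order of the unbound genes differed between replicates, where skl in replicate 1 and Dronc (8647) and skl in replicate 2 were ahead of rpr.

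From the 3' end of hid to the start of skl, 272 kb of 3L (18167745 to 18439942) held 13 optimal peaks, the hid promoter peak and 12 in the gaps between the activators. The strongest peaks of replicates 1, 2 and 3 put 9, 11 and 13 summits there, 11.0 ± 2.00 (SD, n = 3). The density was 4.78 optimal peaks per 100 kb, against 4.94 on 3L and 5.21 on all 6 arms. Of 13228 overlapping windows of this length along the arms, 56.7% held 13 or more, and the median window held 14. The number of peaks was thus near that of the median window. The windows covered whole arms, and 1584 of them held no optimal peak. By position, 12 of the 13 were outside promoters, where the median window held 6 such peaks, and 16.4% of windows held 12 or more. Over the whole optimal list 44.5% of peaks lay outside promoters. The stretch was chosen for the activators and holds 8 protein-coding genes. These shares cannot tell a trait of its peaks from one of the place.

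**Figure D2:**
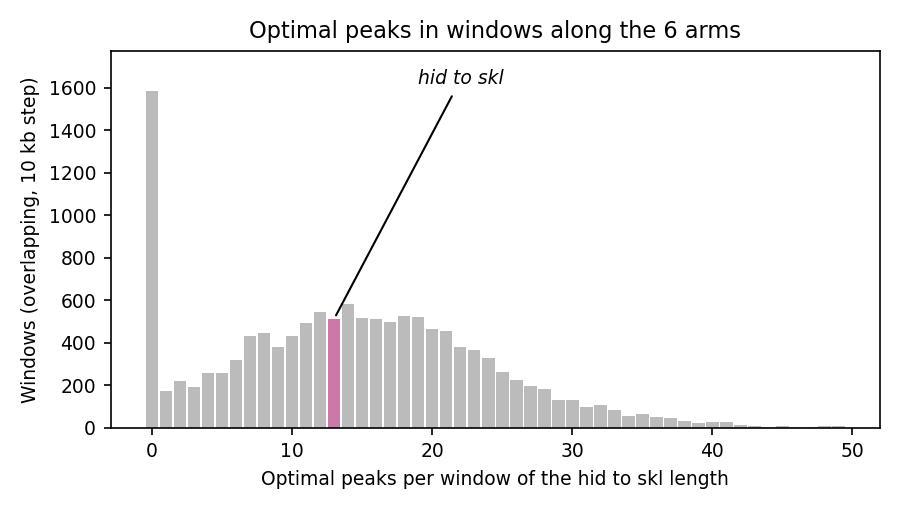
Number of optimal peaks (horizontal axis) in 13228 windows of the length from hid to skl, placed every 10 kb along the 6 arms (vertical axis, windows). The bar that holds the count from hid to skl, 13, is coloured; it lies beside the median window of 14 peaks.

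The gap peaks were unevenly spread. Between hid and grim, 117077 bp held 11 optimal peaks including that of the hid promoter, or 9.4 per 100 kb, and 39 lower-ranked ones. No share of windows of this length is given here. Replicates 1, 2 and 3 had 7, 9 and 11 of their strongest peaks there. Between grim and rpr, 93117 bp held 2 optimal peaks, or 2.15 per 100 kb, and every replicate had 2. Between rpr and skl, 40125 bp held 0 optimal peaks and 6 lower-ranked ones, and no replicate had a strongest peak there. Of 13367 windows of that length over whole arms, 38.3% held no optimal peak, so an empty stretch this short was common among them. The optimal summits on either side of rpr and skl were 103 kb apart, and 187 of 6964 distances between neighbouring optimal summits (2.69%) were as long. Those on either side of grim were 67.4 kb apart, and 365 distances (5.24%) were at least that long. The median distance was 6.03 kb. Both percentages are shares of distances and not of the length of the arms. A long distance covers more of an arm, so these shares do not tell how often a gene falls inside one as long. The last optimal summit before rpr was 40.6 kb from its start site, and the first past skl was 21.4 kb from the skl start site.

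**Figure D3:**
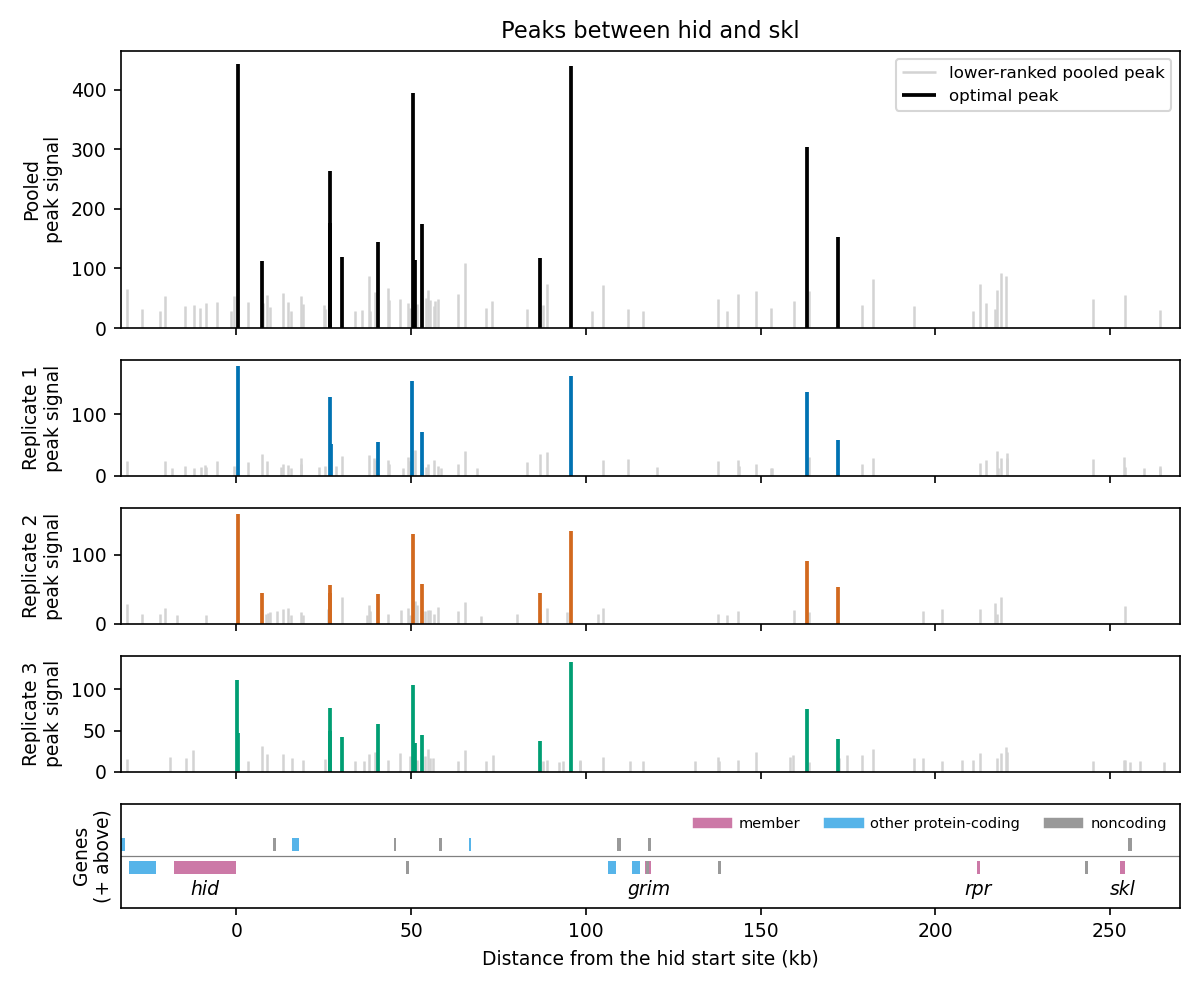
Peaks by distance from the hid start site (kb, increasing towards skl, which is upstream of hid) with their signal on the vertical axis, in the pooled list and in replicates 1, 2 and 3, above a map of genes on the plus (upper) and minus (lower) strands. Dark lines are optimal peaks, coloured lines a replicate's strongest peaks and grey lines lower-ranked ones; strong peaks stand between hid and grim and at a pair of places between grim and rpr, and none between rpr and skl.

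None of the 12 gap peaks lay in an annotated gene. Their distance to the nearest start site of any gene ran from 1274 to 33857 bp, with a median of 10900 bp. For all optimal peaks outside promoters the median was 2410 bp. The gap peaks were taken by place, from a stretch with long gaps between genes. The comparison therefore cannot tell a trait of the peaks from one of the place. For 7 of the 12 the nearest start belonged to a noncoding gene, and no share for other peaks is given here. The strongest gap peak, from 18281295 to 18281521, had signal 439 and rank 1087, next to that of the hid promoter. It lay 95.8 kb upstream of hid and 23.0 kb from the grim start site, downstream of grim, and ranked 955, 1485 and 1040 in replicates 1, 2 and 3. The next, from 18235894 to 18236154, had signal 394 and rank 1296, lay 50.4 kb upstream of hid, and ranked 1054, 1555 and 1578. The nearest start site was that of lncRNA:CR45937 at 1274 bp. The strongest between grim and rpr, from 18348791 to 18348924, had signal 303 and rank 1977 and ranked 1310, 2695 and 2569. It lay 49.6 kb from the rpr start site, downstream of rpr, and 44.4 kb upstream of grim. All 3 replicates put these 3 peaks among their strongest, and their ranges of ranks overlapped. Because the 4 activators all lie on the minus strand, each gap peak is upstream of 1 activator and downstream of another, and the lists do not tell which gene, if any, it serves.

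The 3 gap peaks are shown by the 151 bases around their summits because they were the strongest peaks outside genes near the activators. They are from the plus strand of the same RefSeq assembly (dm6), at chr3L:18281344-18281494, chr3L:18235959-18236109 and chr3L:18348780-18348930. Capitals mark a GAGA factor word in the second and TATA box words in the last, each read on the minus strand.
rank 1087 summit: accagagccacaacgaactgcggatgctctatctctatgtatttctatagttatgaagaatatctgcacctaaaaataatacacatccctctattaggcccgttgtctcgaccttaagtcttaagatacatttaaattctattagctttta
rank 1296 summit: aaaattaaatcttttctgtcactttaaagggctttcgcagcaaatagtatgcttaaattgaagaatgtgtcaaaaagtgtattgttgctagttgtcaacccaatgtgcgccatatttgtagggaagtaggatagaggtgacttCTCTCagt
rank 1977 summit: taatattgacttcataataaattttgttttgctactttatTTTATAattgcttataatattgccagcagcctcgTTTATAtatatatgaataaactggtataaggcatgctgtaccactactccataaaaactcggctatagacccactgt

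The other 9 gap peaks had signals from 113 to 263. At 26.7 and 26.9 kb upstream of hid a pair of overlapping peaks ranked 2446 and 4106. The first ranked 1450, 5077 and 2503 in replicates 1, 2 and 3 and the second 5683, 6548 and 4387. At 53.1 kb a peak of rank 4167 ranked 3643, 4917 and 5092, at 40.6 kb a peak of rank 5218 ranked 5088, 6833 and 3626, and at 172 kb, between grim and rpr, a peak of rank 4912 ranked 4797, 5403 and 5848. These 5 were among the strongest of every replicate. The remaining 4, of ranks 6470, 6631, 6801 and 6885, were not: within 100 bp, 3 of them were matched in the strongest of 1 replicate and 1 in none. Matching by distance decided part of this, since replicate 2 had a strongest peak of rank 6512 at 119 bp from the summit of rank 6885 and one of rank 6507 at 106 bp from that of rank 6631. Of the 12 gap peaks 8 were thus in all 3 replicates, 6 of 10 between hid and grim and 2 of 2 between grim and rpr. Of all 20 optimal peaks counted for the 8 genes 12 were, against 63.5% of all optimal peaks, so recovery in the replicates was near that of any optimal peak.

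Apart from hid, no gene from hid to skl had an optimal promoter peak. The stretch holds 8 protein-coding and 9 noncoding genes. Among the 4 protein-coding genes between hid and grim, CG7320 had a lower-ranked promoter peak of rank 29839, and CheA75a, CG5103 and CG13700 had none. The noncoding genes lncRNA:CR45937, lncRNA:CR45936 and lncRNA:CR46353 had lower-ranked ones of ranks 19180, 16275 and 16555. The strong gap peaks therefore had no bound start site beside them. Lower-ranked peaks between rpr and skl included pooled ranks 8560 and 9104, the closest to the optimal list among the 6 there.

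The inhibitor gene Diap1 (FBgn0260635, 3L, 16038410 to 16051034, minus strand) encodes a ubiquitin ligase that binds and restrains caspases. The activator proteins bind this ligase. The strongest peak of Diap1 lay inside the gene, in an intron from 16045729 to 16046394, with signal 746 and rank 401. This summit was 659 bp downstream of a Diap1 start site and ranked 668, 286 and 361 in replicates 1, 2 and 3. All 3 ranks were ahead of the hid promoter's, and 400 optimal peaks were stronger. A second intron peak, from 16048247 to 16048426, had signal 292 and rank 2087 and ranked 4515, 1913 and 1403. Both were among the strongest of every replicate, and the ranges of the pair did not overlap. Diap1 was the only gene of the 8 with an optimal peak in the gene over 500 bp from its start sites, against 9.81% of all protein-coding genes. With a promoter window of 1000 bp the first counts as a promoter peak and 1 body peak is left.

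The 151 bases around the Diap1 intron summit are shown because this was the strongest of the 20 peaks. They are from chr3L:16046112-16046262, minus strand (the direction of Diap1), of the same RefSeq assembly (dm6), with no capitals because no word searched was found in them.
Diap1 intron summit: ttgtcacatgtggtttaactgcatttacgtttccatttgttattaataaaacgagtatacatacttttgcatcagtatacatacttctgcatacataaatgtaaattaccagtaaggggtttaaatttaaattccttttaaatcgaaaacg

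Diap1 has 5 annotated start sites, more than any other of the 8 genes, which have 1 each. It had 3 optimal promoter peaks, and 82 of the bound genes (1.88%) had 3 or more. That share is over all bound genes, whatever their number of start sites. The share among bound genes with 5 or more start sites is not given here. The peak at position -33 of the start site at 16046846 had rank 5259 and signal 144 and ranked 6249, 3464 and 7681 in replicates 1, 2 and 3. The peak 123 bp downstream of the first start site, at 16051034, had rank 5990 and ranked 6457, 4820 and 9064. The peak at position -47 of the last start site, at 16040535, had rank 6445 and ranked 9182, 8277 and 4894. In replicates 1 and 2 the peaks at the first start site and at 16046846 were among the strongest, and in replicate 3 that at the last start site, so no Diap1 promoter peak was among the strongest of all 3. The start site at 16042570 had a lower-ranked peak of rank 7915. By its best promoter peak Diap1 was in place 3609 of the bound genes, with 82.5% of them stronger. Of 190 genes with 5 or more start sites, 73.7% were bound, and of 10246 genes with 1, 25.0% were. Whether the number of start sites is the reason was not tested. The closest genes in best promoter rank over the replicates were su(w[a]) (6355, 3424 and 4989) and PGRP-LF, which encodes a peptidoglycan recognition protein (6317, 3437 and 4686).

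**Figure D4:**
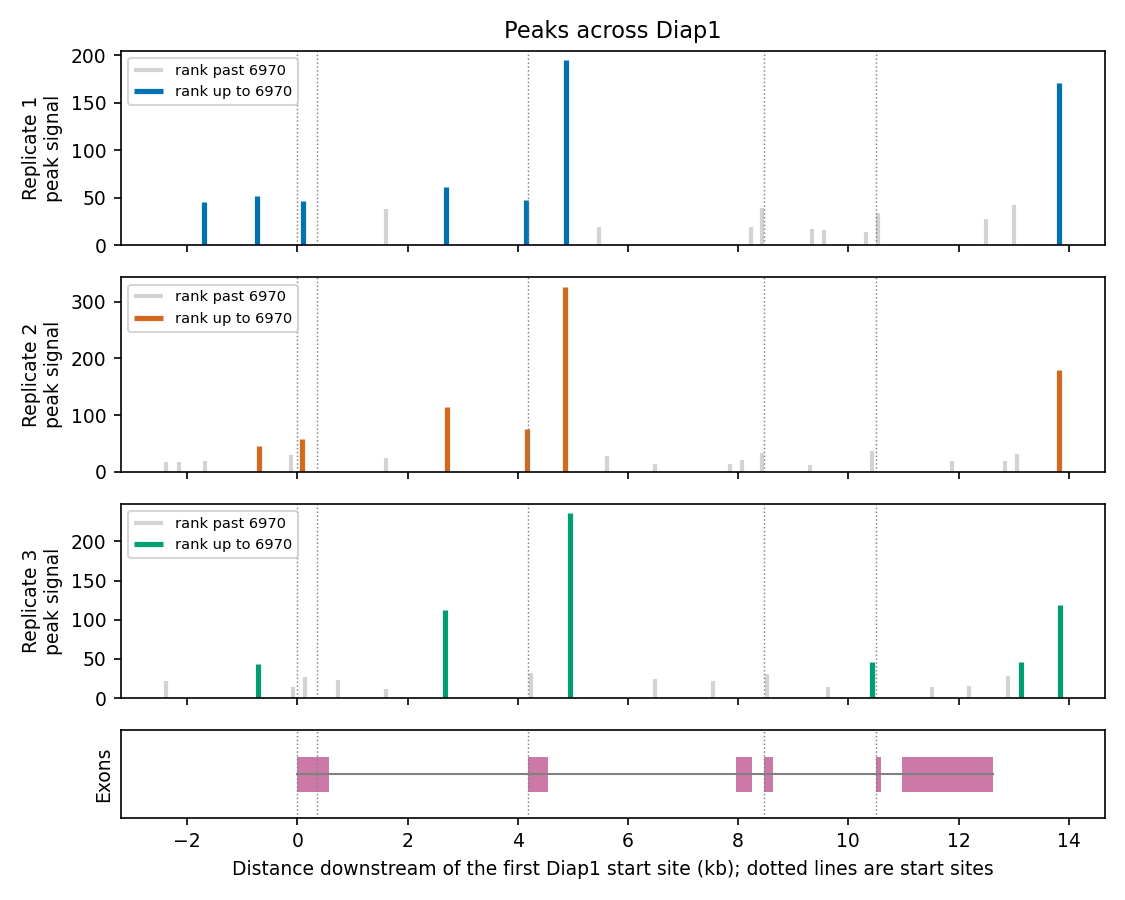
Peaks across Diap1 by distance downstream of its first start site (kb) with their signal in replicates 1, 2 and 3 on the vertical axis, above its exons; dotted lines are the 5 start sites. Coloured lines are a replicate's strongest peaks and grey lines lower-ranked ones; the tallest peak inside the gene is the intron peak in every replicate, and the tall line right of the gene lies in CG5895.

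Optimal peaks of neighbouring genes flanked Diap1, a strong one on the CG5895 side and weaker ones on the Mbs side. Within 10 kb the strongest was in CG5895, past the 3' end of Diap1, with signal 484 and rank 919 (875, 918 and 1271 in the replicates). Upstream, a peak at the promoter of Mbs, which encodes the myosin-binding subunit of myosin phosphatase, had rank 5448 and lay 702 bp from the first Diap1 start site. A further peak in an Mbs intron had rank 5200.

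The initiator caspase gene Dronc (FBgn0026404, 3L, 9968479 to 9971002, plus strand) was not bound. A pooled peak at position -62 had rank 13057 and signal 60.8. Replicate 2 alone held a promoter peak, of rank 8647, and replicates 1 and 3 held none among their 30000 peaks. The nearest optimal summit, 4141 bp from the Dronc start, was at the shared promoter of vnc and CG42455, with rank 3133 and ranks 2659, 2539 and 6424 in the replicates.

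The effector caspase gene Drice (FBgn0019972, 3R, 29799658 to 29801584, plus strand) was bound by a peak from 29799329 to 29799764 with signal 195 and rank 3649. The summit lay 111 bp upstream of the Drice start. The best promoter rank was 4724, 2344 and 3769 in replicates 1, 2 and 3, all among the strongest. The same summit was within 500 bp of the start of Rnb, which runs in the other direction, so the peak counts for both genes and cannot be assigned to either. Drice was in place 2763 of the bound genes, with 63.2% of them stronger, and its replicate range overlapped that of Diap1. Besides Rnb, CG4596 was closest in ranks (4638, 2346 and 4004). A stronger peak, of rank 865 and signal 503, stood 3388 bp downstream of the Drice start at the shared promoter of Etfb and CG7789, and ranked 852, 922 and 797. The 151 bases around the Drice summit are shown as the other promoter peak that every replicate placed among its strongest, from chr3R:29799472-29799622, plus strand, of the same RefSeq assembly (dm6), with capitals on a FoxO word read on the minus strand.
Drice summit: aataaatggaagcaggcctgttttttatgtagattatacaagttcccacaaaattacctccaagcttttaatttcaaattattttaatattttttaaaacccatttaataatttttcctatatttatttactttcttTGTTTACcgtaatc

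The adaptor gene Dark (FBgn0263864, 2R, 17020027 to 17026703, plus strand) had the weakest promoter peak of the 4 bound genes. Its summit was 22 bp downstream of the start, with signal 116 and rank 6703. It ranked 7863, 5526 and 7525 in replicates 1, 2 and 3, so replicate 2 alone had it among its strongest. Of the bound genes 98.2% had a stronger promoter peak, and the replicate range overlapped that of Diap1. The closest genes in rank were Rab32, which encodes a small GTPase (7981, 5635 and 7364), and jumu, which encodes a forkhead factor (7365, 5582 and 7271). Past the 3' end of Dark, the promoter of RhoGEF2 held stronger peaks of ranks 1084 and 2517, and on the other side the promoter of Ehbp1 held a peak of rank 3797.

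Short words that factors are known to read were searched on both strands within 100 bp of the 20 summits. At least 1 of 10 words was held by 12 of the 20 windows. The share of all optimal windows with at least 1 of the words is not given here, so this count has nothing to be read against. The TATA box word, TATAAA, was in 9 windows, 5 of them gap peaks, against 33.9% of all optimal windows and 35.7% of those outside promoters. The GAGA factor word, GAGAG, was in 2, against 21.1% of all optimal windows. The FoxO word, GTAAACA, was also in 2, at Drice and at a Diap1 start site, against 6.2%. The Ohler 1 word, GGTCACAC, was in 1, at Dark, against 3.21%. The AP-1 word, TGANTCA, was in 1, the weaker Diap1 intron peak, against 4.59%. The Scalloped word, CATTCC, was in 1, at the first Diap1 start site, against 6.57%. The p53 decamer was in 1, the gap peak of rank 6801 that lies 51.0 kb upstream of hid, against 3.73%. The DNA replication-related element, TATCGATA, was in 0, against 5.48%, the Zelda word, CAGGTAG, in 0, against 0.832%, and the STAT word, TTCNNNGAA, in 0, against 6.04%. None of these words contains another. A match describes the letters only and the lack of a match says nothing about the factor. The windows had a median GC content of 34.3% (27.9 to 47.8), against 35.8% for all optimal windows.

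Of 55 other genes of the cell death pathway, 32 (58.2%) were bound, against 31.3% of all protein-coding genes, with no test made. The strongest peaks of replicates 1, 2 and 3 gave 30, 33 and 30 bound genes, 31.0 ± 1.73 (SD, n = 3), and 24 were bound in all 3. Genes with more start sites were bound more often in general. Among listed genes with 1 start site 16 of 36 were bound, against 25.0% of all such genes, and among those with more 16 of 19, against 48.9%. The median optimal rank of the 32 was 3591, against 2651 for all bound genes. For 18 of the 32 the peak also lay at the start of another gene. The share of all bound genes for which this holds is not given here, so the count has nothing to be read against. Of the 23 unbound genes 12 had a lower-ranked pooled promoter peak, 5 had a promoter peak in a replicate list alone and 6 had none in any list. Among the 5 was mei-41, the fly ATR, named after its values were seen, with ranks of 1080 and 2633 in replicates 2 and 3, among the strongest of both, and no promoter peak in replicate 1.

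Of 9 further caspases and caspase inhibitors 5 were bound. The effector caspase gene Dcp-1 led with signal 206 (ranks 6134, 2469 and 3955 in the replicates), at a promoter shared with pita. The caspase regulator gene dnr1 had signal 170 (3178, 7859 and 5480), and the initiator caspase gene Dredd, which acts in immunity, 169 at a promoter shared with su(sable). Dredd had no promoter peak in replicate 1 and ranks of 4702 and 4328 in the others. Among the unbound, the giant inhibitor gene Bruce and the caspase gene Damm had no promoter peak in any list, and the adaptor gene Fadd had a lower-ranked peak (rank 8817).

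Of 9 genes of the Bcl-2 family, mitochondria and the apoptosome 7 were bound. The strongest was Cyt-c-d, which encodes a cytochrome c, with signal 841 and ranks of 283, 338 and 333, with a summit 381 bp downstream of its start that is shared with CG31808. The mitochondrial nuclease gene EndoG had signal 337 (1630, 1767 and 1698), at a promoter shared with asRNA:CR45264. Tango7, annotated as eIF3m, had 324 (3482, 1627 and 1224), at a promoter shared with CG8323. Without an optimal peak were the Bcl-2 family gene Buffy, with a promoter peak in replicate 2 alone (8089), and AIF, with a lower-ranked one (9151).

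Of 16 genes of damage and stress input 10 were bound. The signalling adaptor gene Traf6 had signal 340 (1834, 1522 and 1390), at a promoter shared with GIIIspla2. The kinase gene Tak1 had 297 (1876, 2686 and 1919), and tefu, the fly ATM, had 284 (1514, 1690 and 1918), at a promoter shared with Hsc70-4. Among the unbound were Corp and grnd, a TNF receptor gene, each with a promoter peak in replicate 1 alone (10926 and 11874), and hep, a JNK kinase gene, with a lower-ranked one (24440). Of 7 genes of the ubiquitin system 2 were bound (28.6%), a share near that of all protein-coding genes. These were the ubiquitin-conjugating enzyme gene eff (signal 337; 1442, 1839 and 1567), whose peak lay also at jvl, and Uba1 (181; 2529, 4146 and 6101), while Cul3 and morgue had lower-ranked peaks (26454 and 17384) and Roc1b none in any list.

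Of 5 genes of DNA fragmentation 3 were bound, Drep4 (signal 202; 3722, 2576 and 4873), at a promoter shared with Uvrag, DNaseII (157; 6809, 4515 and 4196) and Drep2 (154; 7069, 4350 and 3865), at a promoter shared with Mad1. Drep1 and Drep3 had no promoter peak in any list. Of 9 genes of corpse clearance 5 were bound. The strongest was mbc, which acts upstream of Rac, with signal 746 and ranks of 436, 474 and 314, at a promoter shared with Nup98-96. The adaptor gene Ced-6 had signal 394 (733, 1556 and 2013) and the kinase gene Shark 350 (1991, 1410 and 1517). Among the unbound, Ced-12 had no promoter peak in any list, the receptor gene crq had one in replicate 1 alone (9864), and the engulfment receptor gene drpr had a lower-ranked one (8237).

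**Figure D5:**
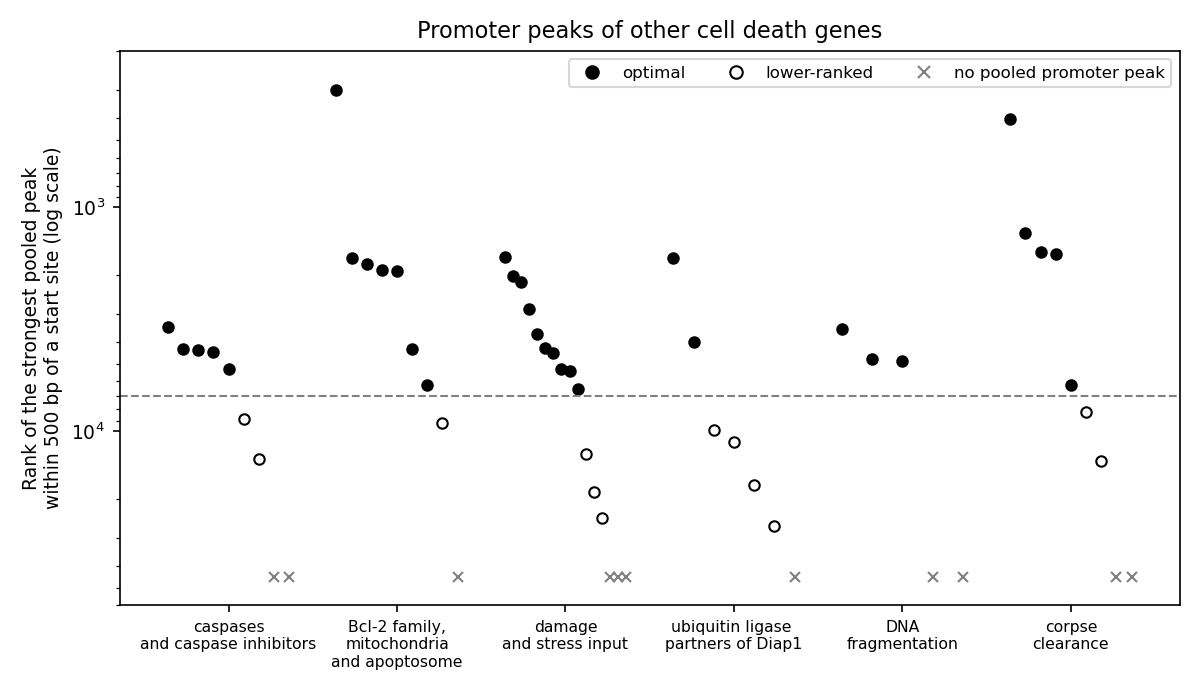
Rank of the strongest pooled peak within 500 bp of a start site (log scale, strong peaks at the top) for 55 other cell death genes in 6 groups by role, each point a gene. The group labelled as partners of Diap1 holds 7 genes of the ubiquitin system. Filled points are optimal, open points lower-ranked and crosses have no pooled promoter peak; the dashed line is rank 6970, and 32 genes lie above it, with Cyt-c-d and mbc at the top.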

How the data were processed

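Lilli-eGFP was mapped by ChIP-seq in 3 biological replicates of 1 group, so no conditions were compared and no test was made. Per the file headers (text deposited with each sample), the replicate lists were called from an alignment and a control, the pooled list from all 3 alignments with that control, and the irreproducible discovery rate then picked the optimal list. The aligner, peak caller and their settings were not given in the sources used. Signal, as deposited, is the authors' per-peak value and has a scale of its own in every list. Among the optimal peaks 6088 share the highest deposited -log10 q-value, which therefore gave no ranks. Summits come from the deposited peak offset, in bases from the start. The dm3 lists were not used.

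Coordinates are 1-based on dm6. Genes came from Ensembl release 115 and sequence from RefSeq of the same assembly, arms X, 2L, 2R, 3L, 3R and 4. Replicate peaks matched within 100 bp. Windows were tiled every 10 kb. Words were searched in 201 bp. The 8 genes, the 55 other genes (3 matched by an older symbol) and the words were chosen with earlier results of these data known. Besides the 8 genes, named genes are those from hid to skl with or next to a peak, those sharing or flanking a counted promoter peak, per role the 3 bound genes with the highest signal and up to 3 unbound in alphabetical order (upper and lower case alike), and the 2 closest in promoter rank by Euclidean distance of log10 ranks. Neighbours within 10 kb were named after their values were seen. Alternatives covered the promoter window, matching distance, number of peaks, word window and leaving out each replicate. The rules were tested on simulated data. Python 3.11.15 was used with pandas 2.3.3, numpy 2.4.6 and matplotlib 3.10.9.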

Additional observations from a re-analysis of the deposited data

How the results depend on the processing

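Of the counts for the 8 genes, most kept within 1.5 times under the alternatives. With the stronger 3485 optimal peaks alone, a smaller set by construction, 1 of the 8 genes was bound instead of 4 (hid), 1 instead of 3 had a promoter peak in every replicate, 5 instead of 13 optimal peaks lay from hid to skl, 4 instead of 9 of these were found in every replicate, and 16 instead of 32 other cell death genes were bound. Leaving out 1 replicate required peaks in both others and left 4828 to 5124 peaks, which is also a stricter set. Then 2 to 3 of the 8 genes were bound, 9 peaks lay from hid to skl in each case and 22 to 25 other genes were bound. With a matching distance of 50 bp, 4 of the peaks from hid to skl were found in every replicate instead of 9. With a window of 1000 bp, 1 gene-body peak was left instead of 2, since the other counts as a promoter peak, and Diap1 had a promoter signal of 746. With a window of 250 bp, 3 of the 8 genes were bound, without hid. The share of all protein-coding genes bound under these alternatives is not given here. The 31.3% holds for the full optimal list and a window of 500 bp alone. No paired analysis was possible because there was only 1 group. Depth is unknown, so a missing peak does not show that lilli is absent from a gene.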
